A study of Mus musculus with 4 samples.

Results

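The genes described here were 7 receptor tyrosine kinases through which muscle stem cells can take up mitogen signals (Met, Fgfr1, Fgfr4, Egfr, Erbb3, Pdgfrb and Axl) and 2 adaptor proteins that carry those signals inward (Grb2 and Gab1). They were taken by name from the table of counts, and all 9 were found among its 19353 genes. RNA was measured in muscle stem cells (MuSCs) from plantaris muscle of Pax7-CreERT2:Rosa-YFP mice, in which tamoxifen lets a Cre recombinase driven by Pax7 switch on yellow fluorescent protein (YFP). The sham group came from muscle with a skin incision and intact tendons. The overloaded group came from muscle at 4 days after tenotomy, the cutting of the distal tendons of the neighbouring gastrocnemius and soleus muscles. Every group carried the same genotype, and the age of the mice is not given in the sources used here. YFP-positive cells were sorted into tubes of 100 cells, and 2 libraries were made for each group. Because the Cre acts from Pax7, only cells that had expressed Pax7 carried the label. Whether both libraries of a group were taken from separate mice is not given, so the p-values measure only the spread between these samples, which may be technical.

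A receptor tyrosine kinase binds its growth factor outside the cell, pairs with a second receptor and phosphorylates tyrosines on its inner tail. Adaptors such as Grb2 and Gab1 dock on those tyrosines and pass the signal to the Ras and ERK kinases, which favour division, and to PI3K and Akt, which favour growth and survival. In skeletal muscle, hepatocyte growth factor acts on Met and fibroblast growth factors act on Fgfr1 and Fgfr4. These signals are described as able to bring quiescent MuSCs into the cell cycle. The study cites work in which deleting Met in MuSCs left their activation and proliferation after injury unaffected. It names hepatocyte growth factor as a potential signal in overload. The question addressed was which of these receptors and adaptors differed in MuSCs between sham and overloaded muscle.

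CEL-Seq2, the method used, reads transcripts next to their poly(A) tail. A unique molecular identifier (UMI), a random tag added before amplification, lets copies of the same molecule be counted once. In sham, 269683 and 260488 UMIs were counted per library, and in overloaded muscle 387955 and 483528. Per sorted cell this came to 2697 and 2605 UMIs in sham and to 3880 and 4835 UMIs in overloaded muscle, so the overloaded tubes gave more UMIs. More RNA per cell and deeper capture or sequencing of a library cannot be told apart in these totals. Levels are given below as CPM, the count relative to the library's UMIs in tested genes after scaling by TMM factors, where a count of 3 equals between 6.08 and 13.6 CPM depending on the library. Such a level is relative to the rest of the RNA in a library, and in bulk tubes fewer cells of a type and less RNA per cell cannot be told apart. The cells carried the RNA of MuSCs, with Pax7 at 118 and 107 UMIs in sham and 108 and 137 UMIs in overloaded libraries, and none of 8 MuSC markers was at 0 in any library. Relative to depth Pax7 was lower after overload (log2 fold change -0.84, adjusted p = 0.000635).

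In GRCm38, Met lies at chr6:17463800-17573980 on the + strand with 22 exons in its longest annotated transcript. Fgfr1 lies at chr8:25513654-25575718 (+, 18 exons) and Fgfr4 at chr13:55152640-55168759 (+, 18 exons). Egfr lies at chr11:16752203-16918158 (+, 28 exons), Erbb3 at chr10:128567523-128589652 (−, 28 exons) and Axl at chr7:25757273-25788705 (−, 20 exons). The adaptors Grb2 and Gab1 lie at chr11:115644045-115708597 (−, 6 exons) and chr8:80764438-80880519 (−, 11 exons). Met, Fgfr4, Pdgfrb and Axl overlap no other annotated gene. Fgfr1 overlaps the opposite-strand Gm16159, which held 8 UMIs over the 4 libraries, and Egfr overlaps the opposite-strand Egfros, which held 21. The strand setting of the counting is not given in the sources used here, so reads of these pairs may have been shared.

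Promoters are shown for the receptor that was higher after overload, Met, and for receptors that were lower, Fgfr4 and Egfr, so that the start regions of genes that moved apart can be read side by side. Each is the RefSeq sequence in GRCm38.p6 from 250 bases before the transcription start to 50 after it, at chr6:17463707-17464006, chr13:55152568-55152867 and chr11:16751953-16752252, all on the + strand, and capitals mark GGGCGG or its reverse complement CCGCCC.
Met: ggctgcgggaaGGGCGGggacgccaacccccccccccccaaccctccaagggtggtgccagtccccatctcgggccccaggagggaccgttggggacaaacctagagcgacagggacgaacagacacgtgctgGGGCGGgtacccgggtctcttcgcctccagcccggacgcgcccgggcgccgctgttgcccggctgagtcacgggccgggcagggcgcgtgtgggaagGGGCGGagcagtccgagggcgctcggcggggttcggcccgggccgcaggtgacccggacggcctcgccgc
Fgfr4: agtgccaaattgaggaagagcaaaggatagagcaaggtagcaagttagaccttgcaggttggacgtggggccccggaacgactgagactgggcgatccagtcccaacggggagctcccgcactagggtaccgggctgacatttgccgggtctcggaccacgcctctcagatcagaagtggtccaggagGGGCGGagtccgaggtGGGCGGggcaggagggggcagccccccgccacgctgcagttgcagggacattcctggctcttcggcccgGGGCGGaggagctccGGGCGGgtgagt
Egfr: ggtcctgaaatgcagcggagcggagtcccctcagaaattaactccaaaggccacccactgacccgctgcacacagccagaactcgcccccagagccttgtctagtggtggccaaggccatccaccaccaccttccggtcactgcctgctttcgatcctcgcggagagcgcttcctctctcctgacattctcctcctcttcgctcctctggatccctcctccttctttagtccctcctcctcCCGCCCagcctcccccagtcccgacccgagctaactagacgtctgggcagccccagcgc
The letters GGGCGG, read on both strands, occurred in 35.7% of the 32851 mouse promoters of this length. The Met promoter held 3 of them (first bases at positions -239, -117 and -20 relative to the start), the Fgfr4 promoter held 4 (positions -62, -46, 24 and 39), and the Egfr promoter held 1 (position -9). The Met promoter also held TGAGTCA at position -54, a match to TGANTCA, which occurred in 7.81% of promoters. None of these 3 promoters held TATAAA (13.6% of all promoters), CAGCTG (16.3%) or CCAAT (37.4%). The GC content was 75.7% for Met, 65.3% for Fgfr4 and 62.3% for Egfr against a median of 52.7% over all promoters, with 34, 20 and 15 CpG pairs against a median of 7. These are counts of letters in fixed windows and say nothing of which factors bind. In all, 6 of the 9 genes were matched in the promoter table, and Fgfr1 was not among them.

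At an adjusted p under 0.1 (edgeR quasi-likelihood test, Benjamini-Hochberg adjustment over 7228 genes), Met was higher in overloaded MuSCs and Fgfr1, Fgfr4 and Egfr were lower. Axl, Grb2 and Gab1 did not pass the test, and Erbb3 and Pdgfrb had too few UMIs to enter it. Of the 7 genes tested, 1 was thus higher and 3 were lower, where 25.8% of all tested genes were higher and 26.3% lower. The 4 called genes were 57.1% of those tested, near the 52.1% of all tested genes that were called, so the share alone sets these genes apart in no way. These 7 had a median of -0.20 on the log2 scale, and all tested genes one of 0.05.

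**Figure D1:**
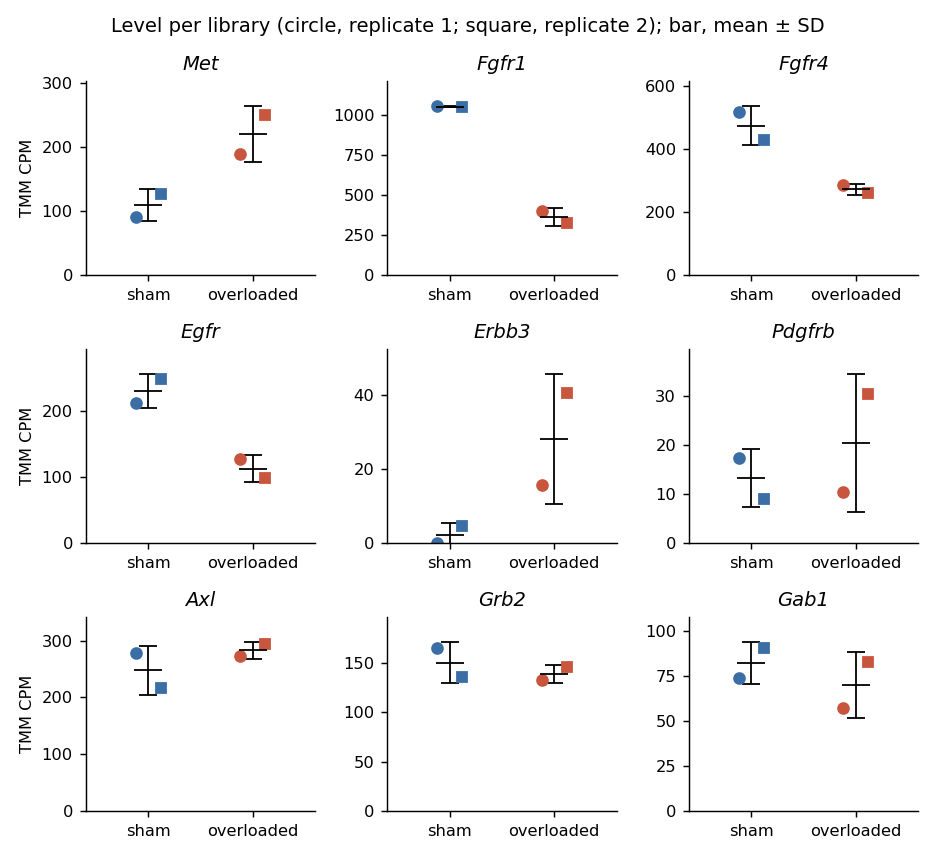
Level of each receptor and adaptor in TMM CPM (vertical axes, each starting at 0) in the 2 sham (blue) and 2 overloaded (red) libraries, with circles for replicate 1, squares for replicate 2 and bars for the mean ± SD. Both overloaded libraries lie above both sham libraries for Met and Erbb3 and below them for Fgfr1, Fgfr4 and Egfr, where 37.5% of all tested genes had both above and 35.4% both below.

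Met, the receptor of hepatocyte growth factor, was measured with 21 and 28 UMIs in the sham libraries and with 73 and 124 UMIs in the overloaded libraries. Scaled to depth, these were 91.4 and 127 CPM in sham and 190 and 251 CPM in overloaded MuSCs. Both overloaded libraries were above both sham libraries, and overloaded replicate 2 was the highest. The mean was 109 ± 25.1 CPM in sham and 220 ± 43.3 CPM in overloaded MuSCs (SD, n = 2 each). The log2 fold change was 1.03 with a standard error of 0.25 and a 95% interval of 0.51 to 1.55 (edgeR, adjusted p = 0.00267). Among the 1868 genes that were higher, Met ranked 635 by p-value. Counted per cell without any scaling, Met went from 0.21 and 0.28 UMIs in sham to 0.73 and 1.24 UMIs in overloaded tubes, 4.02 times as many over the group.

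Fgfr1, a receptor of fibroblast growth factors, showed the largest fall of the 7 tested genes under TMM scaling, though not with offsets for abundance, where Egfr was lowest. It was measured with 242 and 232 UMIs in sham and with 155 and 160 UMIs in overloaded libraries, or 1053 and 1051 CPM against 403 and 324 CPM. The sham libraries differed from each other by less than the overloaded libraries did, and the groups were far apart. With n = 2 each, the nearly equal sham values say little about the spread. The mean fell from 1052 ± 1.71 to 364 ± 55.9 CPM (SD, n = 2 each), with a fitted fall of 2.91-fold, a log2 fold change of -1.54, a standard error of 0.17 and a 95% interval of -1.89 to -1.19 (edgeR, adjusted p = 1.85e-06). Fgfr1 ranked 100 by p-value among the 1898 genes that were lower. It was the one gene of the 7 that was also called lower when UMIs per tube were compared without scaling, with 2.42 and 2.32 UMIs per cell in sham and 1.55 and 1.6 UMIs in overloaded tubes (log2 fold change -0.59, adjusted p = 0.00517). With offsets that remove the trend of fold changes with abundance, the fall shrank to -0.70 on the log2 scale (adjusted p = 0.000275).

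Fgfr4, the other fibroblast growth factor receptor with enough UMIs to test, held 119 and 95 UMIs in sham and 110 and 129 UMIs in overloaded libraries. Its level was 518 and 430 CPM in sham and 286 and 261 CPM in overloaded MuSCs, with no overlap between the groups. The mean was 474 ± 62.0 CPM in sham and 274 ± 17.5 CPM in overloaded MuSCs (SD, n = 2 each). The log2 fold change was -0.80 with a standard error of 0.17 and a 95% interval of -1.16 to -0.43 (edgeR, adjusted p = 0.00132). The raw UMIs of Fgfr4 barely moved, so this fall was relative to the larger totals of the overloaded libraries, and per tube the log2 fold change was 0.16 and not past the test. The call was also lost with offsets for abundance, with a value of -0.20 on the log2 scale (adjusted p = 0.370). The other members of the family were near the floor, with Fgfr2 at 1 UMI in sham replicate 1 and 0 elsewhere and Fgfr3 at 0 and 3 UMIs in sham and 2 and 1 UMIs in overloaded libraries.

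Egfr, the receptor of epidermal growth factor and its relatives, held 49 and 55 UMIs in sham and 49 UMIs in each overloaded library. At 213 and 249.2 CPM against 127 and 99.2 CPM, both sham libraries were higher. The mean was 231 ± 25.4 CPM in sham and 113 ± 19.9 CPM in overloaded MuSCs (SD, n = 2 each). The log2 fold change was -1.04 with a standard error of 0.22 and a 95% interval of -1.51 to -0.57 (edgeR, adjusted p = 0.00117). As for Fgfr4, the UMIs of Egfr per tube hardly differed, and without scaling its log2 fold change was -0.09 (adjusted p = 0.813). With offsets for abundance it was -0.88. Erbb3, a neuregulin receptor of the same family that needs a partner receptor for kinase activity, was listed at 0 and 1 UMIs in sham and at 6 and 20 UMIs in overloaded libraries. The 26 UMIs in overloaded against 1 in sham gave a ratio of 13.3 after scaling, with an exact binomial 95% interval of 2.19 to 547 that covers counting error only. Overloaded replicate 2 held 20 of these 26 UMIs. Erbb3 did not pass the filter on low counts. Without that filter its log2 fold change was 3.58 in edgeR (adjusted p = 0.00118), and DESeq2 gave 3.68 (adjusted p = 0.134), so the tools differed on the call.

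Since Erbb3 is also a gene of Schwann cells, the glia of peripheral nerves, markers of those cells were read beside it. Of 6 Schwann markers, the transcription factor Sox10 had no row in the table used here, and the other 5 summed to 5 and 8 UMIs in sham and to 23 and 25 UMIs in overloaded libraries. Most of this was Ngfr, a neurotrophin receptor, with 3 and 6 UMIs in sham and 15 and 21 UMIs in overloaded libraries. Ngfr was the only Schwann marker tested and was called higher (log2 fold change 1.02, edgeR, adjusted p = 0.0919). It passed the filter on low counts through the overloaded group alone. Without Ngfr, the sums were 8.71 and 9.06 CPM in sham and 20.8 and 8.10 CPM in overloaded libraries. Of the 5 markers with a row, 2 and 3 were at 0 in the sham libraries and 1 and 2 in the overloaded libraries. Their part in the Erbb3 counts was not tested.

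Pdgfrb (chr18:61045150-61085061, + strand, 24 exons) is the receptor of platelet-derived growth factor B and a known marker of mural cells, the cells around small vessels. It was measured with 4 and 2 UMIs in sham and with 4 and 15 UMIs in overloaded libraries. The groups overlapped, and the higher sum of the overloaded group came from replicate 2. The 19 UMIs in overloaded against 6 in sham gave a scaled ratio of 1.62 with an exact binomial 95% interval of 0.624 to 4.97, so no difference was detectable at this depth. Without the filter on low counts the log2 fold change was 0.75 (edgeR, adjusted p = 0.575). Of 8 mural markers, summed UMIs were 193 and 165 in sham and 484 and 701 in overloaded libraries, or 840 and 747 CPM against 1258 and 1420 CPM. The most abundant was the smooth muscle actin Acta2, with 115 and 109 UMIs against 356 and 493, and without it the others summed to 340 and 254 CPM in sham and to 333 and 421 CPM after overload, so that the groups overlapped. The pericyte gene Rgs5 went from 13 and 4 to 38 and 86 UMIs and was called higher with Acta2, Tagln was called lower (log2 fold change -0.61, adjusted p = 0.0453), and Abcc9 (0.48, adjusted p = 0.437) and Mcam (-0.42, adjusted p = 0.476) did not pass the test. The lower sham count of Rgs5 did not reach the filter on low counts, so sham alone would not have kept that gene. Among the defining mural markers, 2 and 1 were at 0 in the sham libraries, and 1 and 0 in the overloaded libraries. Of the 5 mural markers tested, 2 were higher and 1 was lower, against 25.8% and 26.3% of all tested genes, and their part in the Pdgfrb counts was not tested.

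Axl, the receptor of Gas6 and Pros1, held 64 and 48 UMIs in sham and 105 and 145 UMIs in overloaded libraries. Its level was 279 and 217 CPM in sham and 273 and 294 CPM in overloaded MuSCs, and sham replicate 1 lay between the overloaded libraries. The means were 248 ± 43.2 and 283 ± 14.6 CPM (SD, n = 2 each), with a log2 fold change of 0.19, a standard error of 0.19 and a 95% interval of -0.20 to 0.59 (edgeR, adjusted p = 0.427). The interval leaves room for a rise of up to 0.59 on the log2 scale. The call depended on the scaling, since Axl was called higher with library sizes alone (log2 fold change 0.47, adjusted p = 0.0421), with offsets for abundance (0.63, adjusted p = 0.0102) and per tube (1.16, adjusted p = 0.00112).

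The adaptors did not pass the test. Grb2, which links phosphorylated receptors to the Ras exchange factor Sos, held 38 and 30 UMIs in sham and 51 and 72 UMIs in overloaded libraries, or 165 and 136 CPM against 133 and 146 CPM. The groups overlapped, with means of 151 ± 20.9 and 139 ± 9.33 CPM (SD, n = 2 each) and a log2 fold change of -0.11 with a 95% interval of -0.59 to 0.37 (edgeR, adjusted p = 0.725). Gab1, a docking protein that joins Met to Grb2 and PI3K, held 17 and 20 UMIs in sham and 22 and 41 UMIs in overloaded libraries, or 74.0 and 90.6 CPM against 57.2 and 83.0 CPM. Its groups overlapped too, with means of 82.3 ± 11.7 and 70.1 ± 18.3 CPM (SD, n = 2 each) and a log2 fold change of -0.20 with a 95% interval of -0.90 to 0.49 (edgeR, adjusted p = 0.644). For Gab1 the interval is wide enough to hold a log2 fold change of -0.90. The sign of both log2 fold changes turned positive with library sizes alone (0.17 for Grb2 and 0.07 for Gab1), and per tube Grb2 was called higher (0.85, adjusted p = 0.0317).

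The make-up of the receptor transcripts shifted from Fgfr1 towards Met. Of the UMIs of the 7 receptors, which numbered 499 and 461 in the sham and 502 and 642 in the overloaded libraries, Fgfr1 held 48.5% and 50.3% in sham and 30.9% and 24.9% in overloaded MuSCs. The exact binomial (Clopper-Pearson) 95% intervals ran from 44.0 to 53.0% and from 45.7 to 55.0% in sham, and from 26.9 to 35.1% and from 21.6 to 28.5% after overload. Met held 4.21% (2.62 to 6.36) and 6.07% (4.07 to 8.66) in sham and 14.5% (11.6 to 17.9) and 19.3% (16.3 to 22.6) in overloaded MuSCs. For both genes the intervals of the groups did not overlap, and they cover counting error only. Axl also took a larger share, 12.8% and 10.4% in sham against 20.9% and 22.6% after overload, while the share of Fgfr4 was 23.8% and 20.6% against 21.9% and 20.1%. Per UMI of Fgfr1, there were 0.0868 and 0.121 UMIs of Met in sham and 0.471 and 0.775 UMIs in overloaded libraries. Such ratios within a library do not depend on scaling by a single factor per library. The offsets for abundance differ between genes and would change them. With those offsets the log2 fold changes were 1.16 for Met and -0.70 for Fgfr1, against 1.03 and -1.54 under TMM. Summed over the 7 receptors, the share of all UMIs was 0.185% and 0.177% in sham and 0.129% and 0.133% in overloaded libraries.

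**Figure D2:**
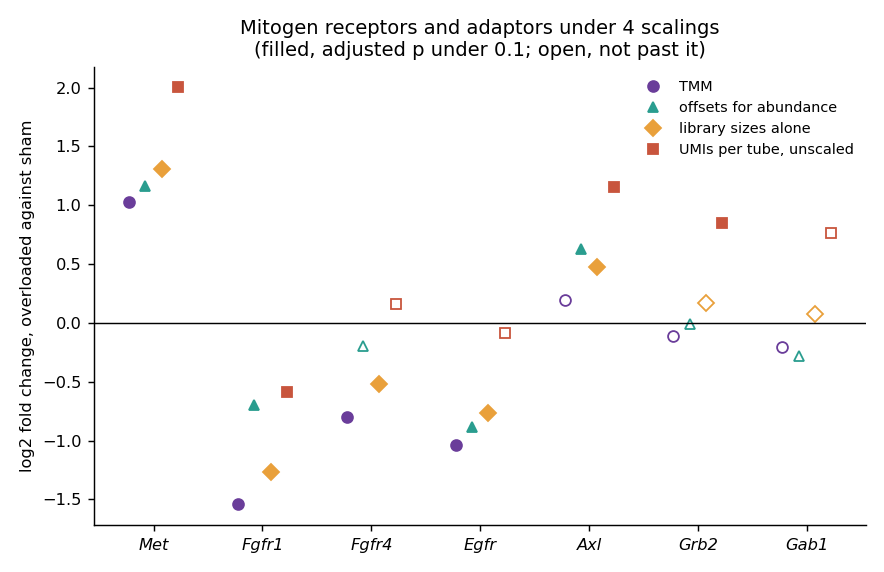
Log2 fold change of overloaded against sham (vertical axis) for the 7 tested receptors and adaptors under TMM scaling, offsets that remove the trend with abundance, library sizes alone, and UMIs per tube without scaling, with filled symbols at an adjusted p under 0.1. Met is above 0 and Fgfr1 below 0 under all 4 scalings, at 2.0 and -0.59 per tube. Fgfr4 is called lower under TMM and library sizes alone, and Egfr under these and with offsets.

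The calls moved with the scaling. Under TMM, 49.6% of all called genes were higher, against 66.6% with library sizes alone and 93.1% per tube, and the median log2 fold change of all tested genes was 0.05, 0.33 and 1.01. Relative to that median, the per-tube log2 fold change of Met, 2.0, was above most genes, and those of Fgfr4 (0.16) and Egfr (-0.09) were below most. Met was called higher, and Fgfr1 lower, under TMM, library sizes alone, offsets for abundance and UMIs per tube, as the plot of the 4 scalings shows.

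The fold changes also followed abundance. When the 7228 tested genes were split into 5 groups of equal size by their average level, the median log2 fold change went from 0.44 in the least abundant group through 0.28, 0.17 and 0.02 to -0.52 in the most abundant group. Fgfr1, Fgfr4 and Axl lay in the most abundant group, in which 57.7% of genes were lower and 13% were higher. Met, Egfr and Grb2 lay in the group below it, with 27.5% lower and 27.7% higher, and Gab1 in the middle one. The 95% interval of Fgfr4 held the median of its group, whereas the interval of Fgfr1 lay below that median and the interval of Axl above it. Met rose and Egfr fell in a group of genes whose median was near 0. The effect of abundance itself on these genes was not tested beyond the offsets given above.

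**Figure D3:**
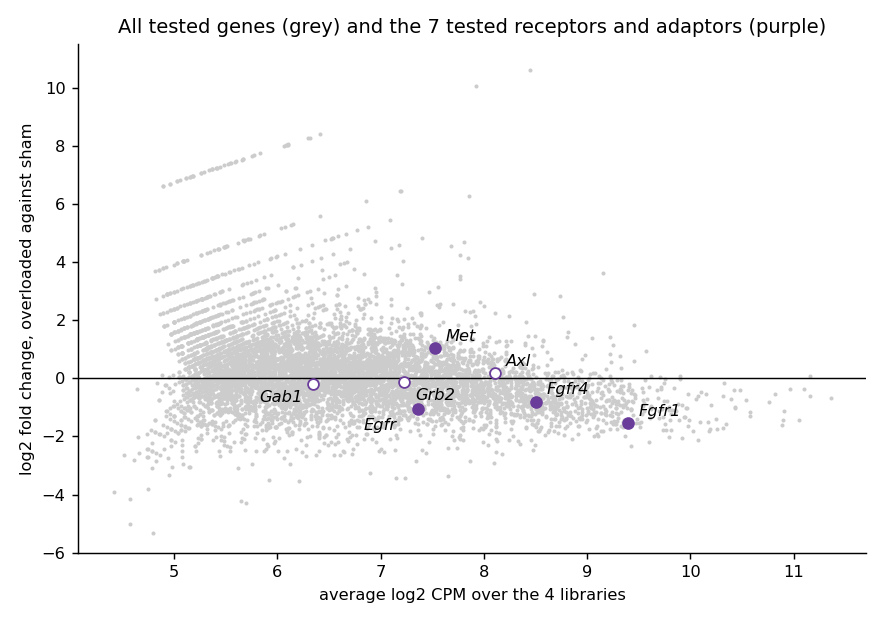
Log2 fold change of overloaded against sham (vertical axis) against average log2 CPM over the 4 libraries (horizontal axis) for all 7228 tested genes (grey) and the 7 tested receptors and adaptors (purple, filled at an adjusted p under 0.1). The grey cloud bends downward at high levels, and the stripes at low levels are genes with few or no UMIs in sham. Fgfr1 and Fgfr4 lie in the falling end of the cloud, and Met lies above 0 at 1.03.

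Beyond these 7, 51 other receptor tyrosine kinases were looked up. Of these, 38 had a row in the table and 12 had enough UMIs to test. None was higher and 5 were lower at an adjusted p under 0.1 (edgeR), where 25.8% and 26.3% of all tested genes were called in those directions. At an unadjusted p under 0.05, 0 were higher, and DESeq2 called 1 higher, Csf1r. The median log2 fold change of the 12 was -0.71, against 0.05 for all tested genes. Ror1, a receptor of Wnt ligands, fell from 59 and 68 UMIs to 42 and 41 UMIs (log2 fold change -1.57, adjusted p = 3.09e-05). Igf1r, the receptor of insulin-like growth factor 1, had 130 and 126 UMIs in sham and 119 and 141 UMIs after overload, which was lower once scaled (log2 fold change -0.94, adjusted p = 0.000221). Musk, the agrin-dependent receptor of the neuromuscular junction, went from 17 and 23 to 20 and 10 UMIs (log2 fold change -1.36, adjusted p = 0.0141). The groups of all 3 did not overlap in CPM, but the rule by which they were named required this. It held for 72.9% of all tested genes. The remaining lower genes, named after their values were seen, were Tek, the angiopoietin receptor of endothelium (10 and 12 against 5 and 11 UMIs, log2 fold change -1.41, adjusted p = 0.0154), and Ret, the receptor of glial-derived neurotrophic factor (26 and 29 against 24 and 38 UMIs, log2 fold change -0.79, adjusted p = 0.0330). Tek passed the filter on low counts through the sham group alone. Musk reached that filter in both sham libraries but not in overloaded replicate 2. Of the 5 lower genes, Ror1 was called under all 15 alternatives. Igf1r lost its call with offsets for abundance and per tube, and Musk, Tek and Ret lost theirs with DESeq2, per tube and without 1 library: Musk without overloaded replicate 2, Tek without overloaded replicate 1, and Ret without sham replicate 2 or overloaded replicate 1. Musk and Tek were also not called with a minimum of 20 counts or with thinned counts. Ret was also not called with library sizes alone or with no filter.

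Csf1r, the receptor of macrophage colony stimulating factor, is a leukocyte gene and was named after its values were seen. It held 0 UMIs in the sham libraries and 5 and 17 UMIs in the overloaded libraries. The 11 leukocyte markers, which include Csf1r itself, summed to 2 and 6 UMIs in sham and to 63 and 130 UMIs in overloaded libraries. They were led by the lysozyme gene Lyz2 with 0 and 0 against 17 and 38 UMIs. The 2 markers tested, Lyz2 and Cd74, were called higher (edgeR, adjusted p = 0.000118 and 0.000111), against 25.8% of all tested genes. Both passed the filter on low counts through the overloaded group alone. In sham, 10 and 8 of the 11 markers were at 0, among them Tyrobp and Fcer1g in both libraries, and in the overloaded libraries none was. The pan-leukocyte gene Ptprc held 0 and 1 UMIs in sham and 1 and 4 UMIs in overloaded libraries. Endothelial markers summed to 27 and 20 UMIs in sham and to 48 and 61 UMIs in overloaded libraries, or 118 and 90.6 CPM against 125 and 124 CPM. Of the 2 tested, 0 were higher and Tek, which passed the filter on low counts through the sham group alone, was lower. Of these 8 markers Tek was the most abundant over the libraries. Without Tek, the others summed to 74.0 and 36.2 CPM in sham and to 112 and 101 CPM after overload. Cdh5 held 3 and 1 UMIs in sham and 14 and 11 UMIs in overloaded libraries and was not tested. Cldn5 was at 0 in both sham libraries and at 1 UMI in each overloaded library. In sham, 3 of the 8 were at 0 in each library, and in the overloaded libraries none was. The part of other cells in the receptor values was not tested.

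**Figure D4:**
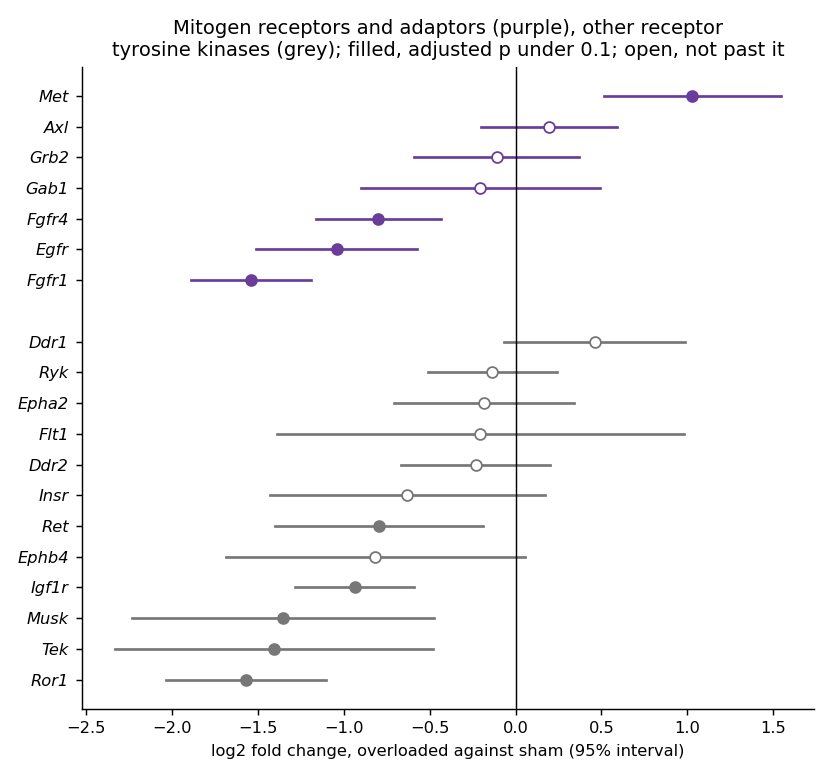
Log2 fold change of overloaded against sham with its 95% interval (horizontal axis) for the 7 tested receptors and adaptors (purple) and the 12 other tested receptor tyrosine kinases (grey), filled at an adjusted p under 0.1. Met is the only filled symbol above 0, and Fgfr1 and Ror1 lie lowest in their groups at -1.54 and -1.57.

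Among 40 ligands of these receptors, 25 had a row in the table and 6 had enough UMIs to test, of which 2 were higher and 3 lower, against 25.8% and 26.3% of all tested genes. Those shares are the background for each list that follows. Hgf, the ligand of Met, had no row in the table used here. The genes called higher encode platelet-derived growth factors. Pdgfb, the ligand of Pdgfrb, was at 1 and 2 UMIs in sham and at 31 and 42 UMIs in overloaded libraries, with means of 6.71 ± 3.33 and 82.8 ± 3.15 CPM (SD, n = 2 each). The 73 UMIs against 3 gave a scaled ratio of 12.5 with an exact binomial 95% interval of 4.11 to 61.9, for counting error only (edgeR, adjusted p = 7.65e-05). Pdgfb passed the filter on low counts through the overloaded group alone. Pdgfa went from 10 and 18 UMIs to 79 and 113 UMIs (log2 fold change 1.80, adjusted p = 6.95e-05). Pdgfc, of the same family, held 0 and 1 UMIs in sham and 4 and 11 UMIs in overloaded libraries and was not tested. Hbegf, a heparin-binding ligand of Egfr, fell from 36 and 51 UMIs to 28 and 39 UMIs (log2 fold change -1.34, adjusted p = 0.000538). The Axl ligands Gas6 and Pros1 were also lower, with log2 fold changes of -0.59 (adjusted p = 0.0288) and -0.73 (adjusted p = 0.0225). Gas6 held 47 and 54 UMIs in sham and 52 and 79 UMIs in overloaded libraries, so its raw counts did not fall. Fgf2, a ligand of Fgfr1 known in muscle, held 6 and 3 UMIs in sham and 4 and 5 UMIs in overloaded libraries and was not tested.

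Of 10 tested co-receptors and enzymes that free or activate ligands, 4 were higher and 3 lower (70% called, against 52.1% of all tested genes), with a median log2 fold change of 0.17. Adam10, a membrane protease that releases ligands of the Egfr family, was at 16 and 5 UMIs in sham and at 60 and 73 UMIs in overloaded libraries (log2 fold change 1.69, adjusted p = 0.000834). The lower sham count of Adam10 did not reach the filter on low counts, so sham alone would not have kept that gene. The related Adam17, named after its values were seen, had a log2 fold change of 0.71 (adjusted p = 0.0616). Among the heparan sulphate proteoglycans that present fibroblast and hepatocyte growth factors, Gpc4 and Sdc1 rose and Sdc4 fell. Gpc4 went from 4 and 7 to 20 and 41 UMIs (log2 fold change 1.48, adjusted p = 0.0148), and Sdc1 from 24 and 11 to 55 and 71 UMIs (log2 fold change 0.88, adjusted p = 0.0228). Of these 2, Gpc4 passed the filter on low counts through the overloaded group alone. Sdc4, a marker of MuSCs, held 422 and 284 UMIs in sham and 375 and 345 UMIs in overloaded libraries (log2 fold change -0.91, adjusted p = 0.00120). Plau, the urokinase that can activate hepatocyte growth factor, and its receptor Plaur were lower, with log2 fold changes of -0.76 (adjusted p = 0.00540) and -1.63 (adjusted p = 0.000457).

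Of 13 further adaptors and exchange factors tested, 1 was higher and 3 were lower (30.8% called, against 52.1% of all tested genes), with a median log2 fold change of -0.18. Nck1, an adaptor that links receptors to actin, rose from 7 and 6 to 32 and 40 UMIs (log2 fold change 1.49, adjusted p = 0.00510). It passed the filter on low counts through the overloaded group alone. Shc1, which couples receptors to Grb2, fell from 20 and 24 to 16 and 17 UMIs (log2 fold change -1.37, adjusted p = 0.00400). Crk, an adaptor with SH2 and SH3 domains, and Plcg1, the phospholipase recruited by Fgfr1 and Egfr, were lower, with log2 fold changes of -0.73 and -0.76 (adjusted p = 0.00496 and 0.0351).

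Of 17 genes of the Ras and ERK branch, 3 were higher and 2 lower (29.4% called, against 52.1% of all tested genes), with a median log2 fold change of -0.09. Hras, a Ras GTPase, was at 12 UMIs in each sham library and at 73 and 82 UMIs in overloaded libraries (log2 fold change 1.73, adjusted p = 0.000113). Nras and Map2k1, the kinase that phosphorylates ERK, had log2 fold changes of 0.59 (adjusted p = 0.0225) and 0.53 (adjusted p = 0.0691). Braf, a kinase activated by Ras, held 39 and 41 UMIs in sham and 21 and 43 UMIs in overloaded libraries (log2 fold change -1.29, adjusted p = 0.000980), and Rasa2, which turns Ras off, had a log2 fold change of -0.77 (adjusted p = 0.0287). Of 9 genes of the PI3K and Akt branch, 2 were higher and 2 lower (44.4% called, against 52.1%), with a median of -0.14. Akt1 rose from 52 and 37 to 127 and 186 UMIs (log2 fold change 0.84, adjusted p = 0.00229) and Akt2 was lower (log2 fold change -0.79, adjusted p = 0.0102). The regulatory subunits of PI3K also went opposite ways, with Pik3r2 at 1.55 (adjusted p = 0.0234) and Pik3r1 at -0.85 (adjusted p = 0.0188) on the log2 scale. Pik3r2 held 4 and 2 UMIs in sham and 13 and 22 UMIs in overloaded libraries. It passed the filter on low counts through the overloaded group alone.

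Of 20 tested genes that end receptor signalling, 3 were higher and 5 lower (40% called, against 52.1% of all tested genes), with a median log2 fold change of -0.17. Errfi1, an inhibitor that binds the kinase domain of Egfr, fell furthest. It held 364 and 374 UMIs in sham and 177 and 162 UMIs in overloaded libraries, or 1584 and 1694 CPM against 460 and 328 CPM. The groups were far apart, with a log2 fold change of -2.07, a standard error of 0.18 and an adjusted p of 3.00e-07 (edgeR). Among the phosphatases, Ptpn2 and Ptprf had log2 fold changes of -1.47 (adjusted p = 0.000345) and -0.83 (adjusted p = 0.00552), and Ptpn12 and Ptpn1, named after their values were seen, had -0.63 (adjusted p = 0.00470) and -0.54 (adjusted p = 0.0228). Sh3kbp1, an adaptor of the ubiquitin ligase Cbl that takes part in receptor uptake, rose from 2 UMIs in each sham library to 12 and 29 UMIs (edgeR, adjusted p = 0.00484) and passed the filter through the overloaded group alone. Its 41 UMIs against 4 gave a scaled ratio of 5.26 with an exact binomial 95% interval of 1.9 to 20.2, for counting error only. Socs5 and Stam2, which act on receptor breakdown and sorting, had log2 fold changes of 0.996 (adjusted p = 0.0797) and 0.83 (adjusted p = 0.0951). In sham, Socs5 held 4 and 8 UMIs and Stam2 held 10 and 7. The lower sham count of each did not reach the filter, so sham alone would not have kept them. Over these 6 lists together, 15 of 75 tested genes were higher and 18 were lower, 44% called against 52.1% of all tested genes, with a median log2 fold change of -0.11.

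**Figure D5:**
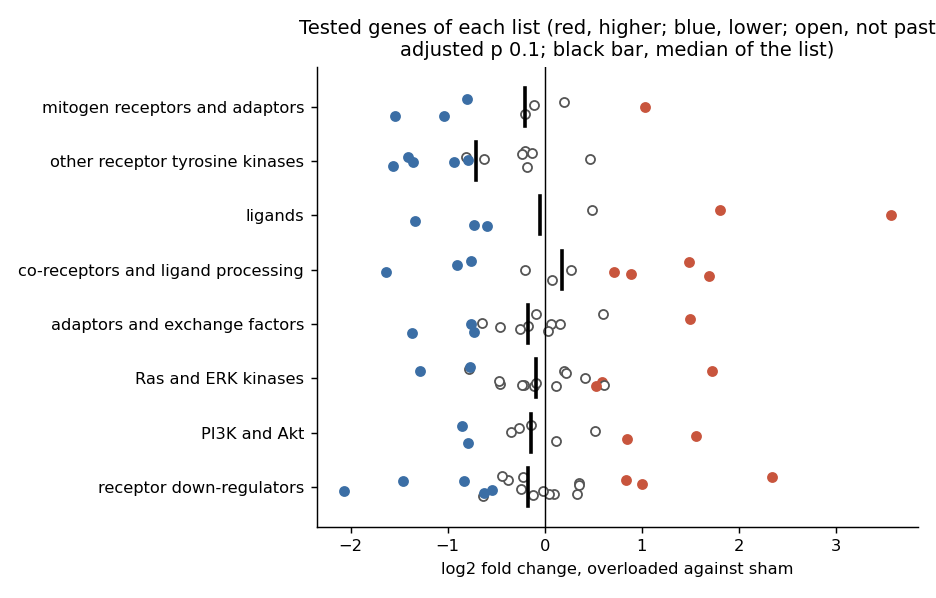
Log2 fold change of overloaded against sham (horizontal axis) of each tested gene in the lists of receptors, ligands and downstream genes (vertical axis), in red where higher and in blue where lower at an adjusted p under 0.1, open otherwise, with a black bar at the median of the list. Each list other than that of the other receptor tyrosine kinases holds genes called in both directions, with medians between -0.20 and 0.17, and that list has a median of -0.71.

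The genes whose profiles over the 4 libraries came nearest to each receptor were found by the Euclidean distance of centred log2 TMM CPM. Nearest to Met were Mesd, a chaperone of Wnt co-receptors, at a distance of 0.0801 and Psmb3, a proteasome subunit, at 0.107. Nearest to Fgfr1 were Gm12760 at 0.0460 and Pnrc1, a nuclear receptor coactivator, at 0.0536. Fgfr4 lay nearest to Hey1, a target gene of Notch signalling, at 0.0472 and to Rasa2 at 0.0568, and Egfr nearest to the ribosomal protein gene Rps16 at 0.0661 and to Ctnnb1, which encodes beta-catenin, at 0.0710. Nearest to Axl were Rps3a1 at 0.0291 and Rnf217 at 0.0510, nearest to Grb2 were Copa at 0.0537 and Ptpn21 at 0.0618, and nearest to Gab1 were Rai1 at 0.0261 and Parva at 0.0495. With 4 libraries in 2 groups, many genes share such a profile.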

How the data were processed

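RNA-seq libraries of MuSCs were analysed, 2 from sham and 2 from overloaded plantaris muscle. The authors extracted UMIs with UMI-tools (1.0.0), aligned reads to GRCm38 with HISAT2 (2.1.0), assigned them with featureCounts (1.6.4) and deposited a table of raw UMI counts for each gene in every library. Tools and versions are from the submitters' processing notes and the study's methods, which also name DESeq2 (1.22.2). The annotation release and strand setting are not given in the sources used here. Groups were taken from the sample labels.

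Counts were scaled by TMM in edgeR (4.0.16, R 4.3.3), filtered by filterByExpr (minimum count 10, minimum total 15) and fitted with glmQLFit and glmQLFTest over the 7228 genes kept, with group as the only term, Benjamini-Hochberg adjustment and a threshold of 0.1, the one in the study's methods. The common biological coefficient of variation was 9.50%. The fit was tested on simulated data. With 2 samples a group, an exact permutation test cannot go below 0.333 two-sided. Within groups, counts of replicates gave chi-square values, divided by the degrees of freedom, of 1.31 (sham) and 1.50 (overloaded), against 6.34 to 7.86 between groups. All 4 libraries were kept. Exact binomial intervals and floors cover counting error only, and intervals of fitted log2 fold changes also carry the fitted spread between libraries.

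The genes and lists were chosen with earlier results of these data known. Named were the 9 receptors and adaptors, from each pathway list up to 3 genes with the largest rise and fall among those called with no overlap between groups and a mean of at least 10 counts, and the 2 nearest profiles of each tested gene (prior count 2). Fgfr2, Fgfr3, Fgf2 and Pdgfc were named outside this rule, after their values were seen. Markers of muscle stem, mural, fibroblast, leukocyte, endothelial, Schwann and tendon cells were read as sums. Alternatives were DESeq2 size factors, library sizes alone, UMIs per tube, offsets for abundance, DESeq2 (1.42.0), limma-voom (limma 3.58.1), no filter, a minimum of 20 counts, a threshold of 0.05, a replicate block, thinned counts, and each library left out. Gene positions were taken from GENCODE M21, and promoters from RefSeq. Python (3.11.15), numpy (2.4.6), pandas (2.3.3), scipy (1.17.1) and matplotlib (3.10.9) were used. The microarray and qRT-PCR data of the study were not analysed here.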

Additional observations from a re-analysis of the deposited data

How the results depend on the processing

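Met, Fgfr1, Fgfr4 and Egfr kept their direction and call under DESeq2 size factors, library sizes alone, DESeq2, limma-voom, no filter, a minimum of 20 counts, a threshold of 0.05, thinned counts and each library left out. Without one library, log2 fold changes ran from 0.80 to 1.28 for Met, -1.69 to -1.38 for Fgfr1, -0.92 to -0.66 for Fgfr4, -1.20 to -0.86 for Egfr, 0.03 to 0.38 for Axl, -0.24 to 0.040 for Grb2 (positive without sham replicate 1) and -0.52 to 0.028 for Gab1 (positive without overloaded replicate 1). Of the 9 receptors and adaptors, 2 were higher with library sizes alone (Axl added), with offsets for abundance (Axl added) and with no filter (Erbb3 added). Per tube, 3 were higher (Met, Axl and Grb2) and 1 was lower (Fgfr1). With library sizes alone the log2 fold changes of Grb2 and Gab1 turned to 0.17 and 0.073, and per tube those of Grb2, Gab1 and Fgfr4 turned to 0.85 (adjusted p = 0.0317), 0.76 and 0.16. Of the other receptor tyrosine kinases, 1 was higher with library sizes alone and with offsets (Ddr1) and with DESeq2 and no filter (Csf1r), and 4 were higher per tube (Ddr1, Ddr2, Epha2 and Ryk). The number lower was 1 per tube (Ror1), 2 with DESeq2 (Igf1r and Ror1) and 3 with a minimum of 20 counts (Igf1r, Ret and Ror1), and it was 7 with offsets for abundance (Ephb4, Flt1 and Insr added, Igf1r lost). Leaving out one library gave 0 to 1 higher (Ddr1 without sham replicate 1) and 3 to 5 lower (3 without overloaded replicate 1). The names beyond the rule were chosen after their values were seen. Of the downstream genes, 25 were higher with library sizes alone, 43 per tube and 7 with DESeq2, and 1 was lower per tube and 11 with DESeq2. Over all genes, 4481 were higher and 331 lower per tube, and 967 and 1215 with DESeq2. The per-tube counts follow from the larger totals of the overloaded tubes, and the cause of the other changes was not tested. With 260488 to 483528 UMIs a library, Erbb3 and Pdgfrb had too few UMIs for the filter of the reported fit. With no filter and with DESeq2, the adjusted p was 0.00118 and 0.134 for Erbb3, and 0.575 and 0.752 for Pdgfrb. The labels number the replicates but do not pair them, and the differences between replicates 1 and 2 of the groups correlated at -0.03 over 7228 genes. A replicate block gave 1806 genes higher and 1864 lower, with log2 fold changes of 1.01 for Met and -1.54 for Fgfr1, and changed no call among the 7 receptors and adaptors tested.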

Other observations

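Markers of fibroblasts and tendon cells were also read in the sorted MuSCs. The 8 fibroblast markers summed to 971 and 905 UMIs in sham and to 1241 and 1374 UMIs in overloaded libraries, or 4227 and 4100 CPM against 3227 and 2782 CPM. The most abundant was the collagen gene Col3a1, with 508 and 461 UMIs in sham and 618 and 683 UMIs in overloaded libraries, which was lower relative to depth (log2 fold change -0.53, adjusted p = 0.0130). Of the 6 fibroblast markers tested, 1 was higher and 4 were lower, against 25.8% and 26.3% of all tested genes. The one that was higher was Ly6a, which encodes Sca-1, with 1 and 0 UMIs in sham and 22 and 41 UMIs in overloaded libraries (edgeR, adjusted p = 0.000109). Ly6a passed the filter on low counts through the overloaded group alone. The others that were lower were Dcn (log2 fold change -0.38, adjusted p = 0.0851), Cd34 (-1.95, adjusted p = 0.000151) and Dpt (-1.43, adjusted p = 4.59e-06). Pdgfra, the receptor that defines fibro-adipogenic cells, was at 0 UMIs in both sham libraries and at 2 and 0 UMIs in overloaded libraries. Of these markers, 1 and 2 were at 0 in the sham libraries, and 0 and 1 in the overloaded libraries. The 4 tendon markers summed to 2 and 6 UMIs in sham and to 49 and 63 UMIs in overloaded libraries, led by the transcription factor Scx with 1 and 2 against 40 and 61 UMIs. The 101 UMIs of Scx against 3 gave a scaled ratio of 17.3 with an exact binomial 95% interval of 5.74 to 85.1, for counting error only (edgeR, adjusted p = 1.42e-05). Scx passed the filter on low counts through the overloaded group alone. Of these 4 markers, 2 were at 0 in each sham library, and 0 and 2 in the overloaded libraries. The tenomodulin gene Tnmd was at 0 UMIs in both sham libraries and at 1 and 0 UMIs in overloaded libraries. The part of such cells in the receptor values was not tested.

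The 8 MuSC markers summed to 1371 and 1117 UMIs in sham and to 1570 and 1726 UMIs in overloaded libraries, or 5968 and 5060 CPM against 4082 and 3495 CPM, with 2 of them higher and 5 lower at an adjusted p under 0.1 (edgeR), against 25.8% and 26.3% of all tested genes. Calcr, the calcitonin receptor of quiescent MuSCs, went from 37 and 57 UMIs to 15 UMIs in each overloaded library (log2 fold change -2.60, adjusted p = 6.76e-06), and the integrin gene Itga7 from 88 and 77 to 232 and 280 UMIs (log2 fold change 0.67, adjusted p = 0.00355).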
